A study of Mus musculus with 6 samples.

Results

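Pre-mRNA splicing factors were taken as the rows of the deposited expression table whose symbols begin with Srsf and a digit, Hnrnp, Sf3a, Sf3b, Snrp or U2af, leaving out symbols that end in -ps. The rule found 56 of the 44804 rows used, of which 55 are protein-coding genes and 1, Snrp1c-ps2, is a pseudogene that is described apart. The 55 comprised 20 hnRNP genes, 11 SR protein genes, 9 genes of the SF3A and SF3B complexes, 8 Sm core genes, 4 genes of the U1 and U2 particles and 3 U2AF genes. They were measured in 6 mouse cells: 1 circulating tumor cell (CTC, a tumor cell found in blood) and 1 tumor cell from each of the mice 1157, 1168 and PDGF1. The tumor cells carry GBM in their titles. The labels give no genotype, strain, age or treatment for these mice, and do not say how the cells were isolated or identified as tumor cells. Comparing the groups asks whether splicing factor transcripts differ between cells in blood and cells of the tumor, with 1 cell of each kind per animal and so no replicate within an animal.

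Splicing removes introns from new transcripts and joins the exons. The small nuclear ribonucleoproteins (snRNPs) U1 and U2 recognise the start of the intron and its branch point, each built on a ring of Sm proteins, with U2AF binding near the end of the intron and SF3A and SF3B holding U2 at the branch point. SR proteins mostly promote, and hnRNPs often repress, the use of nearby exons, and nearly all nucleated cells make these proteins, brain tumor cells included.

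Promoter sequence is shown for Srsf3, Snrpg and Hnrnpk, because these SR, Sm and hnRNP genes were all abundant in both cells of mouse 1168 but behaved differently in the CTC of mouse 1157, where the first pair was high and Hnrnpk low. Each run holds the 250 bases before the annotated start in RefSeq on GRCm38.p6, 5′ to 3′ on the strand of the gene, and capitals mark the TATA box (TATAAA), the CCAAT box or the ETS core (CCGGAA), each searched on both strands. The windows are chr17:29032410-29032659 on the plus strand for Srsf3, chr6:86371290-86371539 on the plus strand for Snrpg and chr13:58402118-58402367 on the minus strand for Hnrnpk.
Srsf3: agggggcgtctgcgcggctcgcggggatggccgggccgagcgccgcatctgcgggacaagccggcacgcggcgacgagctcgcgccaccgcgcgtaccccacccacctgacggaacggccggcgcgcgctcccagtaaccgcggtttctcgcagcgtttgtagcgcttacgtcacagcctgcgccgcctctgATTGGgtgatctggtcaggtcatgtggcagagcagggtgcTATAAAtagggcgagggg
Snrpg: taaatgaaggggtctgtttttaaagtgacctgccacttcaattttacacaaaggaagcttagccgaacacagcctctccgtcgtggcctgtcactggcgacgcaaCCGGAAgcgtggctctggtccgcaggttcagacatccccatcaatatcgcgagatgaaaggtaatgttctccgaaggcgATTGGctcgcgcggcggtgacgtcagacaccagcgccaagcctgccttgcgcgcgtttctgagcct
Hnrnpk: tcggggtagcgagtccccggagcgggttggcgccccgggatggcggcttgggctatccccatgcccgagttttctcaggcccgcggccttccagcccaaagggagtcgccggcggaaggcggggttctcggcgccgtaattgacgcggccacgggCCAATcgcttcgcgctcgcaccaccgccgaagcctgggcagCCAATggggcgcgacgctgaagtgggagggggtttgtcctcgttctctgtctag
Srsf3 held TATAAA just before its start, Snrpg held CCGGAA, the core bound by ETS factors, and all 3 held CCAAT. RefSeq promoters of 300 bases, 250 before and 50 after the start, were matched for 48 of the 55 genes, with 66 promoters in all. Searched on both strands, CCGGAA was in 45.5% of the 66, against 14.9% of all 32851 promoters and 33.5% of the 2938 promoters of genes at 10 FPKM or more in both cells of mouse 1168. The letters GGGCGG, the GC box, were in 68.2%, against 35.7% and 64.2%. CCAAT was in 45.5%, against 37.4% and 38.6%, and TATAAA in 10.6%, against 13.6% and 7.05%. Splicing factor promoters thus held the GC box about as often as other abundantly transcribed genes of mouse 1168, and a match of letters is no measure of binding.

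Values are FPKM, sequenced fragments divided by transcript length and by library size, a scale per length on which genes can be compared only roughly. Wherever 3 values stand for a group, they follow the order of mice 1157, 1168 and PDGF1. Depth was estimated at about 11800000 mapped fragments in the tumor cell of mouse 1157 and at 27400000 to 55700000 in the other 5 cells. The cells differed widely in how many genes they showed, in both groups: 43% and 49.8% of 18859 named protein-coding genes reached 1 FPKM in the CTC and tumor cell of mouse 1168, against 4.84% to 16% in the other 4 cells. Named protein-coding genes held 85.4% and 72.2% of the FPKM in the cells of mouse 1168 and 11.9% to 51.8% in the others. Of 12 markers of oligodendrocyte progenitors and glioma, 12 and 10 reached 1 FPKM in the CTC and tumor cell of mouse 1168, 4 in each cell of mouse 1157, while mouse PDGF1 had 0 (CTC) and 1 (tumor cell). They summed to 613 and 278 FPKM in the CTC and tumor cell of mouse 1168 and to 0.595 to 12.5 in the other 4 cells. Of 10 leukocyte markers, 5 and 9 reached 1 FPKM in the CTC and tumor cell of mouse 1168. In mouse 1157, 2 and 4 did, and in mouse PDGF1 1 and 3. The leukocyte markers summed to 2722 FPKM in the tumor cell and 246 in the CTC of mouse 1168, and to 3.70 to 25.8 in the other 4 cells. Of 4 neuron markers, 2 reached 1 FPKM in each cell of mouse PDGF1, 1 in the tumor cell of mouse 1168 and 0 elsewhere. Of 6 endothelial and 4 astrocyte markers, at most 2 and 1 did in any cell. The 6 platelet markers summed to 72.2 FPKM in the CTC of mouse 1168, of which Itga2b made up 68.0 FPKM while Ppbp, Gp9 and Treml1 were listed at 0, to 13.0 FPKM in its tumor cell and to 0.0762 to 1.96 FPKM in the other 4 cells. The part of these markers in the results on mouse 1168 was not tested. No red cell marker of 6 reached 1 FPKM in any cell.

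In the cells of mouse 1168 nearly every splicing factor was found, and in the other 4 cells most were near the floor. In the CTCs, 20 of 55 reached 1 FPKM in mouse 1157 (10.3% of named genes did), 54 in mouse 1168 (43%) and 1 in mouse PDGF1 (4.84%). In the tumor cells the counts were 18 (16%), 53 (49.8%) and 14 (10.3%). The CTC of mouse PDGF1 was the cell in which the share of splicing factors, 1.82%, lay below that of named genes. The median splicing factor stood at 0.524, 34.5 and 0.0815 FPKM in the CTCs and at 0.587, 25.6 and 0.265 FPKM in the tumor cells. The groups thus overlapped, since both cells of mouse 1168 were high and the other 4 low.

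**Figure D1:**
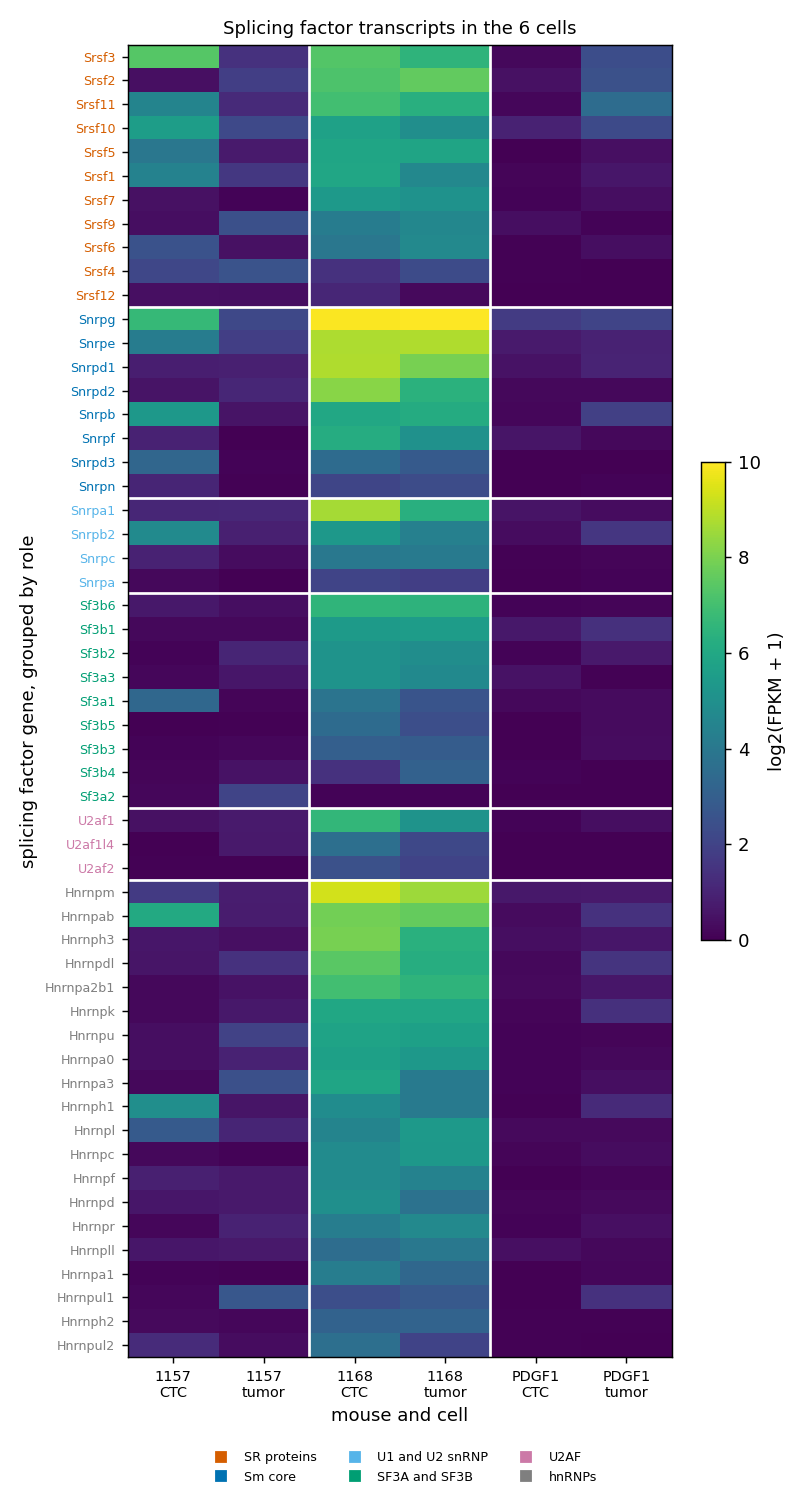
Level of each of the 55 splicing factor genes (rows, grouped by role) in each of the 6 cells (columns), with color giving log2(FPKM + 1). Both columns of mouse 1168 are filled in nearly every row, while the CTC of mouse 1157 is filled in scattered rows led by Srsf3 at 165 FPKM and Snrpg at 102 FPKM.

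Olfactory and vomeronasal receptor genes, which are expressed in sensory neurons of the nose, gave a measure of background. The 99th percentile of 1789 such genes was 0.885, 0.167 and 4.03 FPKM in the CTCs and 1.58, 1.52 and 7.02 FPKM in the tumor cells. Above it lay 22, 54 and 0 splicing factors in the CTCs and 13, 53 and 1 in the tumor cells. Of named protein-coding genes, 11.6%, 52.6% and 1.54% lay above it in the CTCs and 9.96%, 44.8% and 1.45% in the tumor cells. For mouse PDGF1 the counts of 0 and 1, the latter Srsf11 at 10.6 FPKM, were thus near the share of named genes. Of 18 genes at 1 FPKM in mouse 1157's tumor cell, 1 reached 5 FPKM, Hnrnpul1 at 5.57 FPKM. In its CTC 14 genes reached 5 FPKM and 11 reached 10 FPKM.

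**Figure D2:**
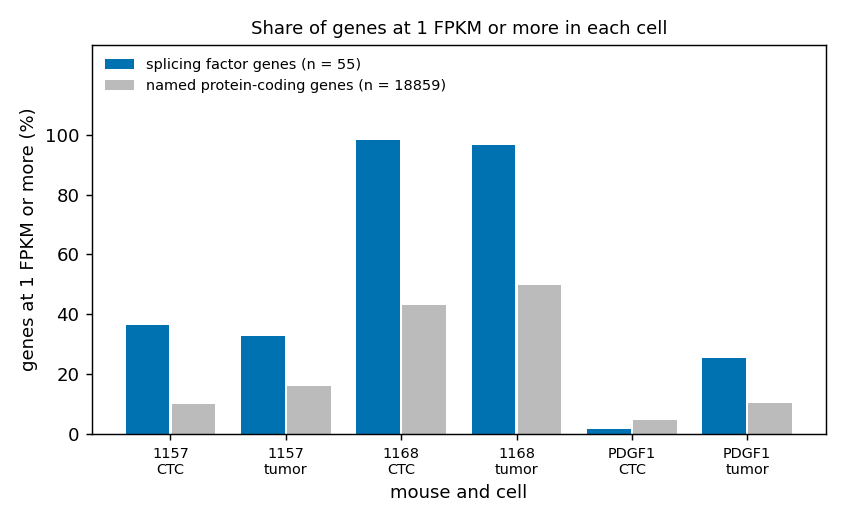
Share of genes at 1 FPKM or more (y axis, %) in each cell (x axis), for the 55 splicing factor genes and for 18859 named protein-coding genes. The share of splicing factors is 98.2% and 96.4% in mouse 1168 and lies above that of named genes in every cell but the CTC of mouse PDGF1, at 1.82% against 4.84%.

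The comparison of 3 CTCs with 3 tumor cells found no splicing factor that differed beyond the spread between these cells. By limma on log2(FPKM + 1), 31 of the 55 genes passed the filter of 1 FPKM or more in at least 3 cells, 0 had an adjusted p under 0.05 (0% of the 4165 genes tested) and 0 an unadjusted p under 0.05 (0.168%). The difference, CTC minus tumor cell, was positive for 21 and negative for 10 (47.1% of all genes tested were positive), with a median of 0.43 against -0.06 over all genes. That median rests on single cells, and the filter was redone for each fit that left cells out. Without the CTC of mouse 1168 it was -0.55 over 16 genes (-0.98 over all genes). Without the tumor cell of mouse 1157 it was -0.09 over 26 (-0.30), and without that of mouse PDGF1 -0.23 over 28 (-0.49). Without both cells of mouse 1157 it was -0.42 over 14 (-0.36). It rose to 2.31 over 16 without the tumor cell of mouse 1168 (0.96) and to 1.82 over 31 without the CTC of mouse PDGF1 (0.63). In these fits it stayed above that of all genes except without both cells of mouse 1157. When cells were scaled over named protein-coding genes it was -0.32, where that of all genes was -1.15. The 24 genes not tested were below 1 FPKM in at least 4 cells. The SEs ran from 0.82 to 4.51 and the differences from -1.45 to 1.54, each smaller in size than its own SE. With the mouse as a block the SEs were smaller, and some differences exceeded them, such as -1.45 for Hnrnpul1 at an SE of 0.77. In that fit 0 splicing factors had an adjusted p under 0.05 (0.024% of genes tested) and 0 an unadjusted p under 0.05 (5.21%).

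No splicing factor had all 3 CTCs above all 3 tumor cells (0.264% of genes tested) or all 3 below (1.3%), and none differed by at least 1 on the log2 scale in one direction in all 3 mice (0.336% higher, 0.72% lower). Of the 31 tested, 1 was higher in the CTC in all 3 mice (7.39% of genes tested) and 2 were lower in all 3 (15.3%). Hnrnpul2 was the tested gene that was higher in each mouse, with Snrpf beside it among those not tested. Srsf2 and Hnrnpul1 were lower in each mouse, with Hnrnpr among those not tested. In mouse PDGF1 all of these genes lay below the receptor level in both cells, 4.03 FPKM in the CTC and 7.02 FPKM in the tumor cell. Hnrnpul2, for one, was at 0.0377 and 0.0219 FPKM there, so the signs in that mouse say little.

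Within single mice, where 1 cell is set against 1 cell and no test is possible, the counts of higher and lower genes differed by animal. A gene counted as measured when it reached 1 FPKM in at least 1 of the 2 cells. In mouse 1157, 29 were measured, 15 of them with a CTC value greater by 1 or more on the log2 scale (29% of all genes measured there) and 6 lower by as much (37.1%), with a median of 1.77 against -0.62 over all genes. In mouse 1168, 54 were measured, 13 higher (22.7%) and 1 lower (24.9%), with a median of 0.37 against 0.04. In mouse PDGF1, 14 were measured, 0 higher (23.7%) and 11 lower (59.9%), with a median of -1.28 against -1.18. All 14 of these reached 1 FPKM in the tumor cell, and only 1, Snrpg, did in the CTC. For the others the filter itself fixed a lower CTC value, so their sign is no result about that animal. So splicing factors stood above the median gene in the CTC of mouse 1157, slightly above it in mouse 1168, and near it in mouse PDGF1.

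Scaling over named protein-coding genes turned the first pair of medians, to -0.39 in mouse 1157 and -0.10 in mouse 1168, as it moved the medians of all genes to -4.11 and -0.40. Set against all genes, the splicing factors were higher by 2.4 in mouse 1157 and by 2.66 to 3.72 under the 3 other scalings. With a filter of 5 FPKM in place of 1 they were higher by 0.72, where the medians were 3.30 and 2.58. Of the 15 genes left, 14 reached 5 FPKM in the CTC alone and 1 in the tumor cell alone. That filter thus fixed every sign, and the result is no support for a difference. In mouse 1168 that difference was 0.33, and 0.03 to 0.31 under the other scalings. In mouse PDGF1 it was -0.10 and turned positive, 0.20 to 0.38, under the other scalings. Over all 55 genes, measured or not, 30, 37 and 9 were higher in the CTC of mice 1157, 1168 and PDGF1 (54.5%, 67.3% and 16.4%). These include genes below 1 FPKM in both cells, whose signs say little. Among measured genes the shares were 62.1%, 68.5% and 0% of splicing factors, against 40.5%, 51.2% and 30.0% of all genes. The filter fixed most of the splicing factor signs in mouse 1157 and all but that of Snrpg in mouse PDGF1.

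**Figure D3:**
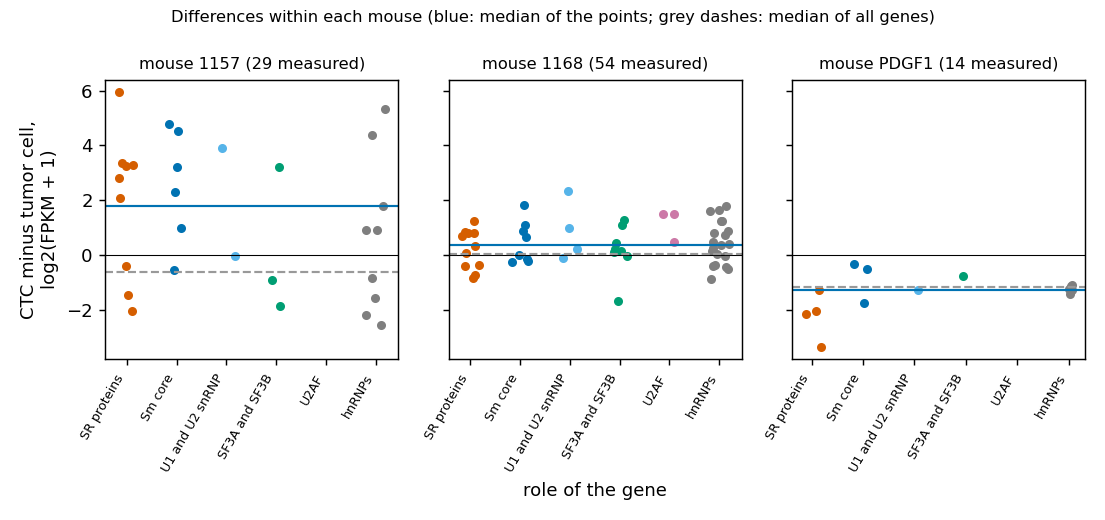
Difference of each measured splicing factor within each mouse, CTC minus tumor cell on the log2(FPKM + 1) scale (y axis), by mouse and role, with the median of the points in blue and that of all measured genes dashed. In mouse 1157 the points spread from -2.55 to 5.93 around a median of 1.77, in mouse 1168 they sit around 0.37, and in mouse PDGF1 all 14 lie below 0. Of those 14, only Snrpg reached 1 FPKM in the CTC, so for the others the filter fixed the sign. The filter also fixed most signs in mouse 1157, where most points reached 1 FPKM in 1 cell alone.

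Summed over the 55 genes, splicing factor FPKM was 598, 5644 and 11.2 in the CTCs and 63.1, 4130 and 50.6 in the tumor cells of mice 1157, 1168 and PDGF1. The CTC held 9.48 times the tumor cell's sum in mouse 1157, 1.37 times in mouse 1168 and 0.221 times in mouse PDGF1. The 10 housekeeping genes summed to 1463, 4147 and 8.69 FPKM in the CTCs and 25.0, 6653 and 23.6 FPKM in the tumor cells, so they lay on the same side as the splicing factors in mice 1157 and PDGF1 and on the other side in mouse 1168. Their part in the result was not tested. As a share of the FPKM of named protein-coding genes, the sums were 0.488%, 0.909% and 0.200% in the CTCs and 0.436%, 0.930% and 0.424% in the tumor cells. On that scale the ratio in mouse 1157 was 1.12, that in mouse 1168 fell below 1, at 0.977, and that in mouse PDGF1 was 0.472. In amplified RNA of 1 cell, fewer transcripts in the cell and loss of RNA before amplification cannot be told apart.

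SR proteins, which bind exons and recruit the splicing machinery, had median differences of 2.79 in mouse 1157 and -2.09 in mouse PDGF1. Those medians kept their signs under the 3 other scalings, down to 0.58 and -1.83. In mouse PDGF1, 4 SR genes reached 1 FPKM in the tumor cell and 0 did in the CTC. The filter thus fixed the negative sign there on the deposited scale, and its persistence is no support for a difference. In mouse 1157 the Sm core median was close, at 2.77, and exceeded that of the SR proteins under each of the other scalings. The filter fixed some signs in that mouse too. Srsf5, Srsf6, Snrpb, Snrpd3 and Snrpn passed it through the CTC alone. Srsf2, Srsf9 and Snrpd2 passed through the tumor cell alone. For these genes the sign on the deposited scale is no result, so the persistence of both medians is weak support for a difference. Srsf3, which also acts in export of mRNA, was at 165, 161 and 0.156 FPKM in the CTCs and at 1.71, 89.5 and 4.14 FPKM in the tumor cells. The CTC of mouse 1157 was thus at the level of the CTC of mouse 1168, while the tumor cell of the same animal was low and the CTC of mouse PDGF1 lowest. The within-mouse differences of Srsf3 were 5.93, 0.84 and -2.15 on the log2 scale in the same order of mice. Srsf2, a general SR protein that autoregulates its own transcript, was at 0.313, 148 and 0.354 FPKM in the CTCs and 2.66, 191 and 4.56 FPKM in the tumor cells. Srsf2 was lower in the CTC of each mouse, by -1.48, -0.37 and -2.04 on the log2 scale, yet its groups overlapped because both cells of mouse 1168 exceeded all others.

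Srsf11 was at 21.6, 125 and 0.141 FPKM in the CTCs and at 1.29, 77.7 and 10.6 FPKM in the tumor cells. Its difference of -3.35 in mouse PDGF1 was the lowest of any splicing factor there, and 3.30 was its difference in mouse 1157. Srsf10, a splicing regulator that acts as a repressor when dephosphorylated, was at 46.6, 52.3 and 0.916 FPKM in the CTCs and 3.67, 30.0 and 3.69 FPKM in the tumor cells. Srsf9 went the other way in mouse 1157, at 0.306 FPKM in the CTC and 4.47 FPKM in the tumor cell, with 17.5 and 23.6 FPKM in mouse 1168 and 0.311 and 0.0782 FPKM in mouse PDGF1. Srsf6 was at 4.71, 14.4 and 0.0487 FPKM in the CTCs and 0.360, 25.0 and 0.285 FPKM in the tumor cells, so its direction reversed between mice 1157 and 1168. Srsf4 stayed under 5 FPKM in every cell, at 3.42, 1.69 and 0.0352 FPKM in the CTCs and 4.90 (1157) and 3.84 (1168) FPKM in tumor cells, and in the tumor cell of mouse 1157 it was behind Hnrnpul1 alone among the 55 genes. Of the 11 SR genes, 6 of 9 measured were higher by at least 1 in the CTC of mouse 1157 and 2 lower. Of all genes measured there, 29% were higher and 37.1% lower. In mouse 1168, 1 of 11 was higher and 0 lower (22.7% and 24.9% of all genes), and in mouse PDGF1 4 of 4 were lower (59.9%). In mouse PDGF1 that direction came from the filter, as did the signs of Srsf2, Srsf5, Srsf6 and Srsf9 in mouse 1157.

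Sm core proteins form the ring on which the U1, U2, U4 and U5 particles are built, and they included the most abundant splicing factor. Snrpg was at 102, 972 and 2.31 FPKM in the CTCs and at 3.51, 1148 and 3.20 FPKM in the tumor cells, and it was the 1 gene of the 55 at 1 FPKM or more in all 6 cells. It was highest of the Sm genes in each cell. Snrpe was at 17.2, 441 and 0.628 FPKM in the CTCs and at 2.65, 447 and 0.919 FPKM in the tumor cells. Both genes were thus almost equal in the cells of mouse 1168 and higher in the CTC in mouse 1157.

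Snrpd1 was at 0.814, 449 and 0.395 FPKM in the CTCs and 0.842, 247 and 1.02 FPKM in the tumor cells. Snrpd2 was at 0.454, 300 and 0.165 FPKM in the CTCs and 1.12, 83.4 and 0.174 FPKM in the tumor cells, a difference of 1.83 in mouse 1168. These ring partners of Snrpg were abundant in mouse 1168 and below 1 FPKM in the CTC of mouse 1157, where Snrpg stood at 102 FPKM. Snrpb, the Sm protein B, was at 39.2, 63.5 and 0.12 FPKM in the CTCs and at 0.457, 70.6 and 2.76 FPKM in the tumor cells. Snrpd3 was at 8.93, 10.2 and 0.00818 FPKM in the CTCs and at 0.0606, 6.08 and 0.00854 FPKM in the tumor cells, with a limma difference of 1.30 (SE 1.57). Although ring proteins are used in equal numbers, the FPKM of Snrpg was 95.5 times that of Snrpd3 in the CTC and 189 times in the tumor cell of mouse 1168. Snrpn, a close relative of Snrpb known from neurons, was far lower than Snrpb, whose FPKM was 19.7 and 17.4 times as high in the cells of mouse 1168. Snrpn shares exons on its strand with the Snurf annotation, and Snrpb and Snrpn are 81.1% identical over 677 coding bases.

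Among the proteins specific to 1 particle, Snrpa1, a U2 protein that binds its partner Snrpb2, was at 1.09, 404 and 0.441 FPKM in the CTCs and 1.17, 79.0 and 0.267 FPKM in the tumor cells. Its difference of 2.34 was the largest of a splicing factor in mouse 1168, and its cells in mouse 1157 were almost equal. Snrpb2 was at 26.3, 39.5 and 0.253 FPKM in the CTCs and 0.826, 19.4 and 2.03 FPKM in the tumor cells. So the CTC of mouse 1157 held Snrpb2 near the level of mouse 1168 and Snrpa1 near the floor. The U1 proteins were lower: Snrpc was at 0.940, 14.9 and 0.0396 FPKM in the CTCs and 0.262, 16.1 and 0.107 FPKM in the tumor cells. Snrpa, which binds U1 RNA, reached 3.15 FPKM in the CTC and 2.61 FPKM in the tumor cell of mouse 1168 and stayed under 0.2 FPKM in the other 4 cells.

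The SF3A and SF3B complexes were detected mainly in mouse 1168. Sf3b6, the subunit next to the branch point, was at 0.563, 92.8 and 0.0754 FPKM in the CTCs and at 0.288, 86.5 and 0.105 FPKM in the tumor cells. Sf3b1, the largest subunit and a gene mutated in several cancers, was at 0.166, 43.1 and 0.549 FPKM in the CTCs and at 0.163, 44.5 and 1.65 FPKM in the tumor cells. Both were nearly level between the cells of mouse 1168, with differences of 0.10 and -0.05. Sf3b2 was at 0.0720, 33.7 and 0.0611 FPKM in the CTCs and 1.04, 29.0 and 0.598 FPKM in the tumor cells. Sf3a3 was at 0.117, 34.5 and 0.398 FPKM in the CTCs and 0.505, 25.6 and 0.0354 FPKM in the tumor cells. Sf3a1, a subunit that links SF3A to the U2 particle, was the exception in mouse 1157.

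Sf3a1 was at 9.13, 13.5 and 0.149 FPKM in the CTCs and at 0.0903, 5.05 and 0.212 FPKM in the tumor cells. Its limma difference was 1.47 (SE 1.69, adjusted p = 0.99994), which does not exceed the spread between these cells. With the mouse as a block the SE in limma was 0.81 (adjusted p = 0.936). Sf3a2 reached 3.11 FPKM in mouse 1157's tumor cell and at most 0.128 FPKM in the other 5 cells, both cells of mouse 1168 included. Sf3b4 was the 1 gene lower by at least 1 in the CTC of mouse 1168, at 1.69 FPKM against 7.69 FPKM in the tumor cell, and it stayed under 0.5 FPKM in the other 4 cells.

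All 3 U2AF genes were below 1 FPKM in the 4 cells of mice 1157 and PDGF1. U2af1, the small subunit that reads the end of the intron, was at 0.366, 98.1 and 0.0648 FPKM in the CTCs and 0.629, 34.6 and 0.306 FPKM in the tumor cells. U2af1l4, a related gene, was at 11.4 FPKM in the CTC and 3.47 FPKM in the tumor cell of mouse 1168 and listed at 0 in the CTC of mouse 1157. U2af2, the large subunit, was at 4.55 and 3.0 FPKM in mouse 1168, so its FPKM was below that of U2af1 in both cells. All 3 were higher in the CTC of that mouse, by a median of 1.48, and by 0.69 to 1.25 under the other scalings.

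The hnRNPs, abundant nuclear proteins that coat new transcripts, followed the same pattern, with all 20 at 1 FPKM or more in both cells of mouse 1168 and 5 in the CTC of mouse 1157, 0 in that of mouse PDGF1 and 5 in each of their tumor cells. Hnrnpm was at 2.26, 635 and 0.576 FPKM in the CTCs and at 0.755, 368 and 0.618 FPKM in the tumor cells. Hnrnpab was at 66.3, 235 and 0.234 FPKM in the CTCs and at 0.682, 196 and 1.72 FPKM in the tumor cells. The most abundant hnRNP of mouse 1168, Hnrnpm, was thus low in the CTC of mouse 1157, where Hnrnpab led, with a within-mouse difference of 5.32. The median of the hnRNPs measured in mouse 1157, 0.89, turned to -1.45 with scaling over named protein-coding genes. Hnrnph3 was at 0.524, 245 and 0.30 FPKM in the CTCs and at 0.337, 79.6 and 0.516 FPKM in the tumor cells. Hnrnpdl was at 0.488, 175 and 0.170 FPKM in the CTCs and at 1.69, 73.6 and 1.87 FPKM in the tumor cells.

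Hnrnph1, a relative of Hnrnph3 that binds runs of G, was at 29.4, 28.1 and 0.0480 FPKM in the CTCs and at 0.465, 16.6 and 1.26 FPKM in the tumor cells. The CTC of mouse 1157 held Hnrnph1 above its level in the CTC of mouse 1168, and Hnrnph3 near the floor. Hnrnpa3 was at 0.160, 57.6 and 0.0815 FPKM in the CTCs and 4.37, 15.8 and 0.277 FPKM in the tumor cells. It was lower in the CTC by -2.21 in mouse 1157 and higher by 1.80 in mouse 1168. Hnrnpu, a scaffold protein of the nucleus, was at 0.309, 54.7 and 0.0814 FPKM in the CTCs and 2.90, 49.9 and 0.110 FPKM in the tumor cells. Hnrnpl was at 6.08, 21.8 and 0.185 FPKM in the CTCs and 1.07, 41.6 and 0.193 FPKM in the tumor cells, so its direction also reversed between mice 1157 and 1168. Hnrnpc, which binds runs of U, was at 27.3 FPKM in the CTC and 39.8 FPKM in the tumor cell of mouse 1168 and stayed under 0.3 FPKM in the other 4 cells.

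Hnrnpul1 and Hnrnpul2, relatives of Hnrnpu linked to the response to DNA breaks, had limma differences of opposite sign. Each was smaller in size than its SE in the fit without the mouse as a block. Hnrnpul1 was at 0.124, 4.31 and 0 FPKM in the CTCs and 5.57, 5.89 and 1.71 FPKM in the tumor cells. The CTCs of mice 1157 and PDGF1 lay below all 3 tumor cells, and the CTC of mouse 1168 lay between them. Its limma difference, -1.45 (SE 1.53, n = 3 and 3, adjusted p = 0.99994), had the smallest unadjusted p of the 31, 0.341, and with the mouse as a block no splicing factor had an adjusted p below 0.935. Hnrnpul2 was at 1.36, 11.6 and 0.0377 FPKM in the CTCs and at 0.247, 3.02 and 0.0219 FPKM in the tumor cells, with a limma difference of 0.86 (SE 1.11).

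The CTC of mouse 1157 held a split set of splicing factors. There 14 genes at 5 FPKM or more made up 95.8% of the summed FPKM, 6 lay between 1 and 5 FPKM and 35 lay below 1 FPKM. The FPKM of the 14 was 0.0390 to 1.05 times that in the CTC of mouse 1168, with a median of 0.482. Of the 39 genes at 10 FPKM or more in both cells of mouse 1168, 28.2% reached 10 FPKM in this cell, against 12.4% of the 2827 genes of any kind that met the same condition. At 1 FPKM the shares were closer, 38.5% and 29.2%. The tumor cell of mouse 1157 had 38.5% against 30.7%, that of mouse PDGF1 33.3% against 25.0%, and the CTC of mouse PDGF1 2.56% against 10.3%. In all, 23 of the 55 genes were below 1 FPKM in each of the 4 cells of mice 1157 and PDGF1.

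**Figure D4:**
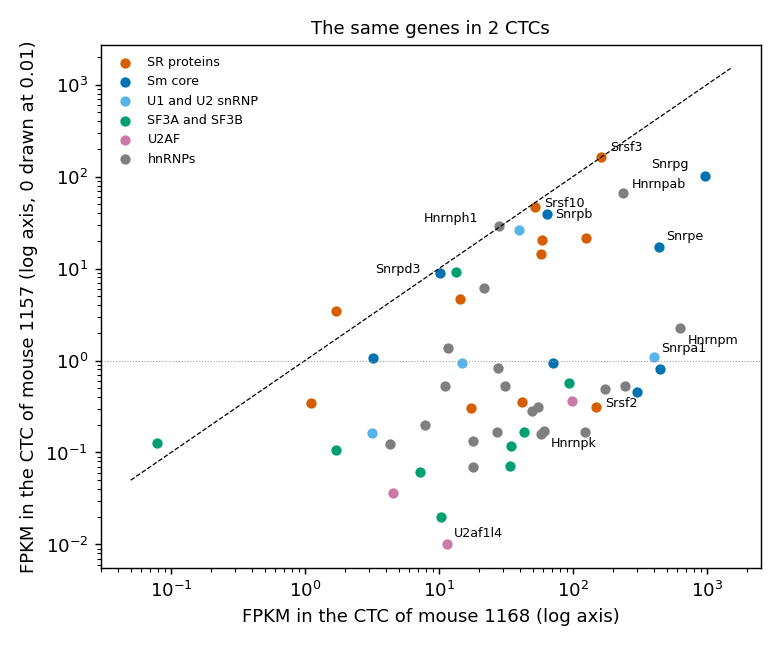
FPKM of the 55 splicing factors in the CTC of mouse 1157 (log axis) against the CTC of mouse 1168 (log axis), colored by role, with U2af1l4, listed at 0, drawn at 0.01. The 14 genes at 5 FPKM or more lie at 0.0390 to 1.05 times their level in the CTC of mouse 1168, and of the 35 below 1 FPKM all but Sf3a2 lie under the line of equality.

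Many of these genes have processed copies elsewhere in the genome that reads could match. By alignment of coding sequences on GRCm38, 21 of the 55 had a pseudogene copy of at least 95% identity over 200 bases or more, with 69 copies in all. Hnrnpa3 had 26, Hnrnpa1 had 9 and Hnrnpf had 6, so their levels are uncertain. The 52 copies in the table summed to 22.6 and 26.6 FPKM in the CTC and tumor cell of mouse 1168, most of it from Gm8186, a copy of Snrpg at 12.7 and 20.2 FPKM. Snrp1c-ps2, the pseudogene that met the rule, was at 0.452 FPKM in the CTC and 3.25 FPKM in the tumor cell of mouse 1157 and listed at 0 in the other 4 cells. The levels of Hnrnpm, Snrpa1, Sf3b3, Hnrnpa3, Hnrnpul2 and U2af1l4 are uncertain too, since each shares exon bases with another annotated gene on its strand. Transcript length went with level weakly, with a Spearman correlation across the 55 genes of -0.26 in each cell of mouse 1168, against -0.37 and -0.39 across 7426 named genes, and genes are not independent replicates.

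Other parts of the splicing machinery, taken from lists of known complexes, had 0 genes called and 0 at an unadjusted p under 0.05. Of 22 genes of the tri-snRNP and U5, 11 were tested, 4 positive and 7 negative, with a median of -0.12. Ppih, a prolyl isomerase of the tri-snRNP, was at 78.1 FPKM in the CTC and 0.253 FPKM in the tumor cell of mouse 1157, and Lsm3, of the ring on U6, was at 0.211, 12.6 and 0.126 FPKM in the CTCs and 0, 24.6 and 3.53 FPKM in the tumor cells. Of 16 U1 and U2 partners 8 were tested, 2 positive and 6 negative, with a median of -0.26. Luc7l3, a U1-associated protein, was at 52.7 FPKM in the CTC and 162 FPKM in the tumor cell of mouse 1168, and Luc7l2 at 20.7 and 22.2 FPKM.

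Of 24 Prp19 complex and catalytic step factors 12 were tested, 5 positive and 7 negative, with a median of -0.47. Plrg1 of the Prp19 complex was at 90.2 FPKM in the CTC and 0.209 FPKM in the tumor cell of mouse 1157, while both cells of mouse 1168 were alike, at 20.5 and 20.2 FPKM. Crnkl1 of the same complex stayed at or below 3.24 FPKM. Of 8 minor spliceosome genes 2 were tested, 1 positive and 1 negative: Snrnp48 was at 384 and 61.9 FPKM and Zcrb1 at 184 and 140 FPKM in the CTC and tumor cell of mouse 1168.

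Of 14 SR protein kinases and SR-related genes 10 were tested, 2 positive and 8 negative, with a median of -0.30. Srpk1, which phosphorylates SR proteins, stood in mouse PDGF1 at 20.6 FPKM in the tumor cell against 0.535 FPKM in the CTC, and Srpk3 in mouse 1157 at 5.24 FPKM in the tumor cell, listed at 0 in the CTC. Of 8 exon junction complex genes 5 were tested, 2 positive and 3 negative, with a median of -0.18. Rbm8a, a core subunit, was at 36.0, 393 and 0.185 FPKM in the CTCs and 1.04, 103 and 6.47 FPKM in the tumor cells, a direction by mouse like that of Srsf11. Acin1 was higher in the CTC in mouse 1168 alone, at 25.6 against 12.4 FPKM. Of 15 snRNA biogenesis genes found 4 were tested, 1 positive and 3 negative, with a median of -0.39. Gemin6, of the SMN complex that loads Sm rings, was higher in the CTC of each mouse. Its values, CTC first, were 1.77 and 0.195 FPKM for mouse 1157 and 28.1 and 10.8 FPKM for mouse 1168. For mouse PDGF1 they were 0.438 and 0 FPKM, below the receptor levels of 4.03 and 7.02 FPKM, so that sign says little. Gemin5, which recognises snRNA, stood at 2.62 and 3.01 FPKM in mouse 1168. The 17 genes with Rnu symbols, among them U-type small nuclear RNAs, were all below 1 FPKM in every cell.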

How the data were processed

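RNA of 6 mouse cells, 3 CTCs and 3 tumor cells, was amplified linearly and sequenced as stranded mRNA libraries, per the labels' protocols. The authors deposited FPKM. STAR 2.4.2a and Cufflinks 2.2.1 are listed with the build GRCm38, per the submitters' processing notes. The annotation and the treatment of reads that match several genes are not given in the sources used here. Of 45038 rows, 27 with a name turned into a date and 207 others with a repeated name were left out. Coordinates and gene classes came from GENCODE release M21 on GRCm38, matched by symbol for 41450 rows.

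Depth was estimated from FPKM steps: in genes with 1 annotated transcript of 1000 to 10000 bases, 88.9% to 92.2% of low values lay within 0.05 of a whole number of fragments (10% by chance). No count test was run, since Cufflinks shares fragments among transcripts.

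The test was limma 3.58.1 (R 4.3.3) with a variance trend on log2(FPKM + 1), two-sided, with Benjamini-Hochberg adjustment over 4165 genes and a threshold of 0.05. The pseudocount understates differences of low genes. On simulated data for this comparison, over 4165 genes, it recovered 100% of changes of 2 and of 4 at a spread of 0.3, with 9 false calls, and 0% at the spread of these cells. Cells of the same mouse are paired by the animal, and after removal of group means they correlated across genes at 0.178, 0.689 and 0.428 in mice 1157, 1168 and PDGF1. The CTC of mouse PDGF1 correlated at 0.422 with mouse 1157's tumor cell, so the pairing rests on the labels. P-values measure the spread between these cells.

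Genes named were, per role, up to 4 of highest mean FPKM, up to 5 of largest difference in each direction per mouse, the 4 of smallest p, and up to 2 per other list by p. Hnrnpk, Hnrnpr, Snrpf, Snrpn, Hnrnpa1, Hnrnpf, Sf3b3, the pseudogenes and genes of the closing observations were named after their values were seen. The members and lists were chosen with earlier results of these data known. Alternatives were other pseudocounts, filters and scalings, the mouse as a block and leaving out cells. Pseudogene copies were found with BLAST+ 2.17.0. Tables and plots were made in Python 3.11.15 with matplotlib 3.10.9, pandas 2.3.3, scipy 1.17.1 and numpy 2.4.6.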

Additional observations from a re-analysis of the deposited data

How the results depend on the processing

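No splicing factor was called under any alternative fit. The paired fit, with the mouse as a replicate block, called 1 gene of 4165, as did scaling over named protein-coding genes, a choice made after seeing the data, against 0; neither gene is a splicing factor. The median difference of the tested splicing factors, 0.43, ran from -0.55 to 2.31 when cells were left out, the extremes being without the CTC and without the tumor cell of mouse 1168. The median over all genes tested was -0.98 and 0.96 in those 2 fits. In mouse 1157 the count lower in the CTC, 6, became 11 with equal FPKM sums, 12 with scaling over named genes (median -0.39) and 1 with a filter of 5 FPKM. With scaling over named genes the count higher, 15, became 10, below the count lower, where 20.3% of all genes were higher and 70.0% lower. In mouse 1168 the count lower, 1, became 2 with a pseudocount of 0.1, 0 with quantile normalization, 3 with equal sums and 5 with named-gene scaling, and the count higher, 13, became 4 with quantile normalization and 7 with named-gene scaling. In mouse PDGF1 the median, -1.28, became -3.00 with a pseudocount of 0.1, -3.21 with equal sums and -3.35 with a filter of 5 FPKM, which left 1 gene, and the count lower, 11, became 7 with quantile normalization and 1 with that filter. At 5 FPKM in place of 1, the genes found fell to 0 and 1 (CTC and tumor cell of mouse PDGF1) and to 1 (tumor cell of mouse 1157), and at 10 FPKM to 0, 1 and 0, with 11 in the CTC of mouse 1157; above the receptor level they were 0 and 1 in mouse PDGF1. The ratio of summed FPKM, CTC to tumor cell, was 3.22 in mouse 1157 as a share of all FPKM. As a share of named-gene FPKM it was 1.12 in mouse 1157, 0.977 in mouse 1168, where the direction reversed from 1.37, and 0.472 in mouse PDGF1. Beyond what each alternative does by construction, the cause was not tested. With 3 cells a group and a median SD of 1.88 on the log2 scale, changes of 4 were not recovered in simulation, so the absence of calls does not show that splicing factors are alike in the groups.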

Other observations

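Splicing regulators known for tissue-specific use were also seen mainly in mouse 1168, where 25 of 34 reached 1 FPKM in the CTC and 26 did in the tumor cell, against 3 to 10 in the other cells. Named protein-coding genes in general showed the same pattern, with 43% and 49.8% in those cells and 4.84% to 16% in the others. Of 15 tested by limma, 4 were positive and 11 negative, with a median of -0.31, 0 called and 0 at an unadjusted p under 0.05. Rbm25, a U1-associated regulator, stood in mouse 1168 at 826 FPKM in the CTC against 72.2 FPKM in the tumor cell, and in mouse PDGF1 it stood the other way, at 0.459 and 13.2 FPKM. Qk, a regulator of glial splicing and myelination, was at 82.5 and 68.2 FPKM in mouse 1168 and under 0.4 FPKM in the other 4 cells. Celf4, a neuronal RNA-binding protein, was lower in the CTC of each mouse, at 0.0876, 3.23 and 0.0372 FPKM in the CTCs and 6.2, 7.69 and 2.96 FPKM in the tumor cells, with a limma difference of -1.90 (SE 1.65). Khsrp was at 0.192, 1.97 and 0.226 FPKM in the CTCs and 0.541, 5.52 and 2.18 FPKM in the tumor cells. For both, the CTC of mouse 1168 lay among the tumor cells. Ptbp1, a repressor of neuronal exons, reached 5.39 FPKM in the CTC of mouse PDGF1, above the receptor level of that cell, 4.03 FPKM, which no splicing factor of the main set passed. Lsm2 of the tri-snRNP list and Dhx15 of the U1 and U2 partners also passed it, at 7.17 and 6.65 FPKM, as did 1.54% of named genes. Ptbp2, a relative of Ptbp1, was at 0.462 FPKM in that cell and at 16.1 and 13.5 FPKM in mouse 1168. The epithelial regulator Esrp1 was below 1 FPKM in all 6 cells.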
